A study of Mus musculus with 2 samples.

Results

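The forkhead genes encode transcription factors that share a winged-helix DNA-binding domain. All protein-coding genes of the GENCODE vM21 annotation whose symbol is Fox, a letter and digits were taken, except Foxo1, Foxo3 and Foxo4. This gave 41 of 21829 protein-coding genes. By the germ layer or tissue in which each is best known to act, 4 were assigned to endoderm, 9 to mesoderm and mesenchyme, 11 to ectoderm (nervous system, neural crest and placodes) and 10 to broad expression. The other 7 act in restricted settings such as the early embryo, germ cells, the immune system, the thymus or ciliated and surface epithelium. These roles, broad expression among them, were assigned by hand from general knowledge, and no expression was measured here.

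Forkhead proteins bind a short motif, of which TGTTTAC is the usual form, and several of them can engage sites in closed chromatin. Foxa proteins open liver and gut enhancers, Foxc proteins pattern somites and vessels, Foxf proteins respond to hedgehog signals in mesenchyme, and Foxd3 acts in the neural crest. In muscle, Foxk1 is known from myogenic progenitors and Foxj3 from the control of Mef2c. The Foxo genes other than Foxo6 are the classic regulators of muscle atrophy.

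DNase-seq measures where the nuclease DNase I cuts chromatin, and so which sequence is accessible. Both libraries came from whole gastrocnemius, a calf muscle, of 4-day-old male B6CASTF1/J mice, the F1 hybrid of C57BL/6J and CAST/EiJ. They form 1 group of 2 biological replicates with no treatment and no control group. Each was made from a pool described as 3 males, and the labels give them separate biosample entries but the same donor entry. Whether they come from separate animals is not settled by the labels, so an SD here measures the spread between these 2 libraries, which may be technical. In such bulk tissue, fewer nuclei of an accessible cell type and less accessibility per nucleus cannot be told apart.

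The deposited peak lists hold 94295 peaks in replicate 1 and 123291 in replicate 2, with 210189 and 335055 footprints, short protected stretches within accessible DNA. The number of sequenced cuts is unknown. Since the density scale differs between the libraries (1 step of the scale is 0.00675 in replicate 1 and 0.00333 in replicate 2), each peak was ranked within its own library. The rank is the percent of that library's peaks of lower density, near 0 for the weakest and 100 for the strongest, and a gene with no peak was set to 0. A promoter peak lay within 500 bp of an annotated coding start, and a gene took the rank of its strongest one. All 8 skeletal muscle markers had promoter peaks in both replicates, beside 64.1% of all genes. Their median mean rank was 83.1, from Chrna1 at 56.9 to Myod1 at 85.3 and Des at 88.5. The counts for other cell types were 5 of 6 fibroblast genes, 5 of 6 endothelial genes, 6 of 6 pericyte genes, 4 of 6 Schwann cell genes, 4 of 5 cartilage genes and 1 of 6 lymphocyte genes. Median mean ranks were 91.0 for the fibroblast genes, 84.6 for pericyte, 65.5 for Schwann cell, 56.2 for endothelial, 54.2 for cartilage and 0 for lymphocyte genes. The part of these cell types in the values below was not tested. With 1 group and 2 replicates no test was made, and errors are SD over n = 2.

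Taken without regard to CpG content, forkhead promoters were as often accessible as promoters in general within 500 bp, but their peaks were weaker. With a shorter reach or fewer peaks the number of accessible members fell, and no all-gene share is given there. Promoters of like CpG content are compared below. Replicate 1 had promoter peaks at 29 members (70.7%) and replicate 2 at 32 (78.0%), where 65.3% and 67.0% of all protein-coding genes had one. Peaks were found in both replicates at 27 members (65.9%), beside 64.1% of all genes. The median mean rank of the 41 members was 53.4, beside 77.2 for all genes. A mean rank over 80 was reached by 15 of 41 members and by 48.3% of all genes. The members' ranks in the 2 libraries went together (Spearman rho 0.899 across 41 genes, which share library and depth).

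**Figure D1:**
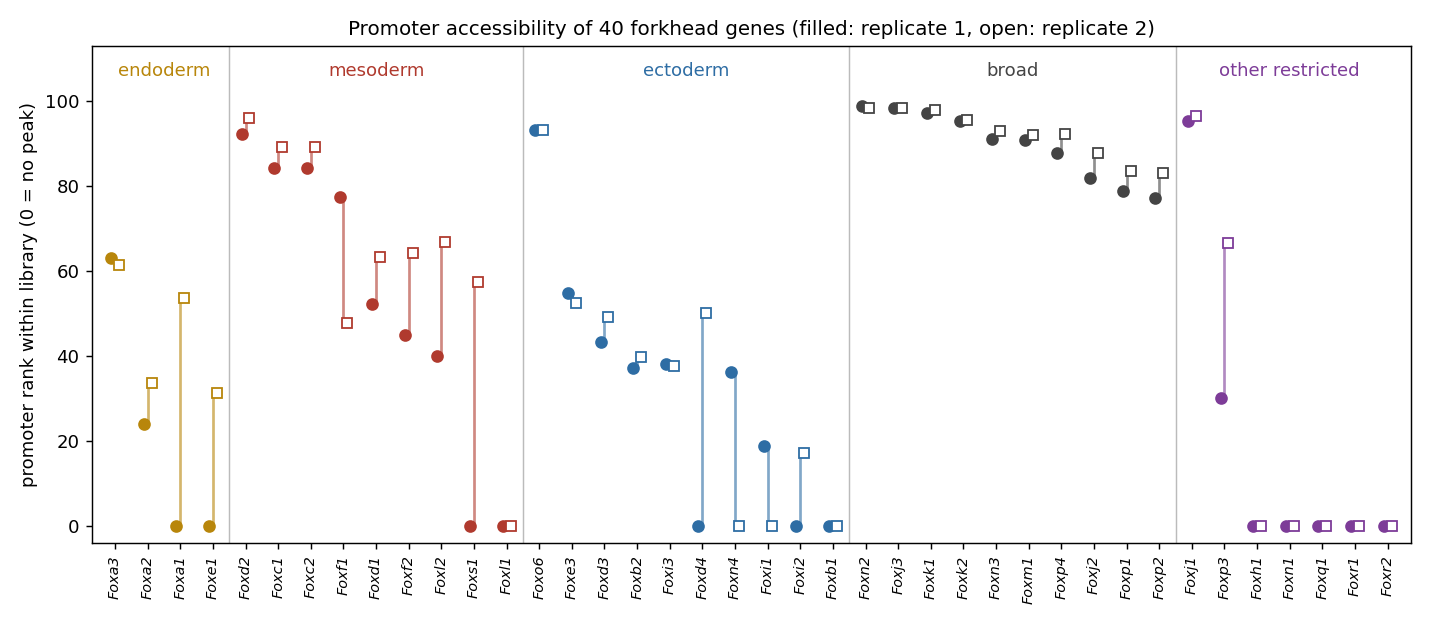
Promoter rank (vertical axis, percent of the library's peaks of lower density, 0 for no peak) of 40 forkhead genes in replicate 1 (filled circles) and replicate 2 (open squares), grouped by role. The 10 broadly expressed genes all had mean ranks from 80.1 to 98.6, and the other groups spread from 0 to 96.0.

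Of the 15 members with a mean rank over 80, 10 were broadly expressed. The rest were Foxj1 (96.0), Foxd2 (94.2), Foxo6 (93.2), Foxc1 (86.8) and Foxc2 (86.6). All 10 broadly expressed members had a peak in both replicates and a mean rank over 80, with a median of 91.7. Foxn2 led the family, at a density of 10.8 and rank 98.8 in replicate 1 and 5.93 and 98.4 in replicate 2 (mean rank 98.6 ± 0.234, SD, n = 2). Foxk1, a repressor found in myogenic progenitors, ranked 97.1 and 97.8 (97.5 ± 0.487, SD, n = 2). Its relative Foxk2 ranked 95.4 and 95.6 (95.5 ± 0.194, SD, n = 2). The replicates of these genes lay within 1 rank unit of each other. Foxm1, which drives mitotic genes, had a mean rank of 91.4 at a peak it shared with the start of Rhno1. Foxn3 followed at 92.0, Foxp4 at 89.98, Foxj2 at 84.9, Foxp1 at 81.2 and Foxp2 at 80.1.

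At Foxj3 the accessible start was not the most upstream one, and Foxp1 and Foxn3 were open at their first starts and more strongly at internal ones. Foxj3 ranked 98.5 and 98.4 (98.4 ± 0.0840, SD, n = 2), but its peak began at +2437 in replicate 1 and +2417 in replicate 2, counted from the most upstream coding start (negative offsets are upstream). Around that first start, no base within 2 kb passed a false discovery rate (FDR) of 0.05 in either library. The Foxj3 peaks also lay within 500 bp of a start of Frg2f1, so they cannot be assigned to Foxj3 alone. The strongest Foxp1 peak lay at an internal start, from +492742 in replicate 1 and +492702 in replicate 2. Near the first Foxp1 start the strongest peak ranked 71.1 in replicate 1 and 78.1 in replicate 2. Foxn3 likewise had its stronger peak at +170296 (rank 91.0 in replicate 1) and a second at its first start (rank 87.9).

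The sequence below is the Foxk1 promoter peak up to the first transcribed base, shown because it is the strongest peak of the group at a first start with a muscle role (chr5:142401341-142401496, mm10, plus strand). Capitals mark bases inside footprints in both libraries, 57 of 156, here and in the sequences that follow.

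Foxk1 promoter: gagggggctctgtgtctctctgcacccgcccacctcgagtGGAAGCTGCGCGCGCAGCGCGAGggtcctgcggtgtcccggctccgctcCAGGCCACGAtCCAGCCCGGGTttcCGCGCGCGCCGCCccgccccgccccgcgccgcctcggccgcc

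Among the 9 mesodermal members the promoters ran from rank 94.2 to none. Foxd2, of paraxial mesoderm and mesenchyme, had the strongest, with densities of 4.98 and 4.21 and ranks of 92.3 and 96.1 (94.2 ± 2.68, SD, n = 2). Its peak had the same borders in both libraries, from -207 to -28, and lay between Foxd2 and the start of the antisense transcript Foxd2os. Foxc1 (chr13:31806633-31812476) ranked 84.2 and 89.3 (86.8 ± 3.56, SD, n = 2). Foxc2 (chr8:121116171-121118895), its closest relative, ranked 84.2 and 89.1 (86.6 ± 3.52, SD, n = 2). Foxc1 and Foxc2 thus differed by less than the spread of either between replicates. The Foxc1 peak was 220 and 200 bp wide and began at -172. The Foxc2 peak measured 200 bp in each library, starting at -150.

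The upstream parts of these 3 peaks are shown because they are the strongest mesodermal promoters, each 5′ to 3′ on the gene's strand. They are chr4:114908901-114909080 (minus strand), chr13:31806461-31806632 (plus strand) and chr8:121116021-121116170 (plus strand), all mm10. Footprints in both libraries covered 67 of 180 bases at Foxd2, 27 of 172 at Foxc1 and 14 of 150 at Foxc2.

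Foxd2 promoter: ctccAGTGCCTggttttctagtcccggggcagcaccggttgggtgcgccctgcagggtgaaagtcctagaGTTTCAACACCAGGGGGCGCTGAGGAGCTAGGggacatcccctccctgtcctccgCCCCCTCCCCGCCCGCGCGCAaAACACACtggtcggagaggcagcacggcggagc
Foxc1 promoter: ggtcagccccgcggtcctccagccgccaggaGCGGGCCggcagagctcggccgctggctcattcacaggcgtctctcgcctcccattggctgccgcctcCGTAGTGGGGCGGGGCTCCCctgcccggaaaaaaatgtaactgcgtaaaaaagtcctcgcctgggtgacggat
Foxc2 promoter: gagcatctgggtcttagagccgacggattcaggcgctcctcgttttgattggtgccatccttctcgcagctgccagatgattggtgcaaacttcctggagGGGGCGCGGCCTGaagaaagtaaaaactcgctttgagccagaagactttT

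At Foxc1 the wider protected run held a GC box (GGGCGG) at -66. A CCAAT box, the site of the factor NF-Y, lay on the other strand at -88 in Foxc1 and at -103 and -71 in Foxc2, outside the runs shared by both libraries. Within 250 bp upstream of the first start, CCAAT on either strand was found at 15 of 41 members (36.6%) and at 36.1% of all genes. The GC box was found at 24 members (58.5%) and 39.9% of all genes, and TATAAA at 2 (Foxa3 and Foxc2, 4.88%) and 11.5%. The forkhead form TGTTTAC was found there at 1 member (Foxa1), beside 2.64% of all genes. Its variant TATTTAC was found at 1 (Foxb1), beside 2.44%, and the weaker form TGTTTGC at 2 (Foxl2 and Foxn4), beside 4.24%.

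The remaining mesodermal promoters were weaker. Foxf1, which acts in lung and gut mesenchyme, ranked 77.4 in replicate 1 and 47.7 in replicate 2 (62.5 ± 20.9, SD, n = 2), and these were different peaks. The replicate 1 peak spanned -745 to -466. In replicate 2 a peak with the same left border ranked 87.2 and ended outside the 500 bp reach, and with a reach of 1000 bp the mean rank of Foxf1 was 82.3. Foxf2 ranked 45.0 and 64.3 (54.7 ± 13.6, SD, n = 2), Foxd1, of kidney stroma, 52.3 and 63.2 (57.8 ± 7.70, SD, n = 2), and Foxl2, of the ovary, 40.1 and 66.8 (53.4 ± 18.9, SD, n = 2). Foxs1, known from pericytes, had a peak within 500 bp of a start in replicate 2 only (rank 57.5), but with a reach of 1000 bp it had one in both, with a mean rank of 76.7. Foxl1, of gut mesenchyme, had none in either.

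Of the 41 members, 8 lie within 200 kb of another, in 3 clusters, and within each cluster the promoters differed widely. On chromosome 8, Foxf1, Foxc2 and Foxl1 lie within 43554 bp. Promoter accessibility was found at Foxf1 and Foxc2 and not at Foxl1, which starts 11769 bp from Foxc2, nor at Fendrr, the noncoding RNA beside Foxf1. All 8 replicate 1 peaks of this window had a partner in replicate 2. The strongest peak there ranked 98.9 and 99.4 and lay between Foxf1 and Foxc2, at the start of Mthfsd. On chromosome 13, Foxq1, Foxf2 and Foxc1 are spaced by 69682 and 180817 bp. Foxq1, of hair and surface epithelium, had no promoter peak, though peaks over its own body ranked up to 48.5 in replicate 1 and 69.7 in replicate 2. The strongest peak of that window was not a promoter but a distal site at -5263 from Foxc1 (ranks 92.8 and 93.3). On chromosome 4, Foxd2 and Foxe3 start 17140 bp apart, with mean ranks of 94.2 and 53.6.

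**Figure D2:**
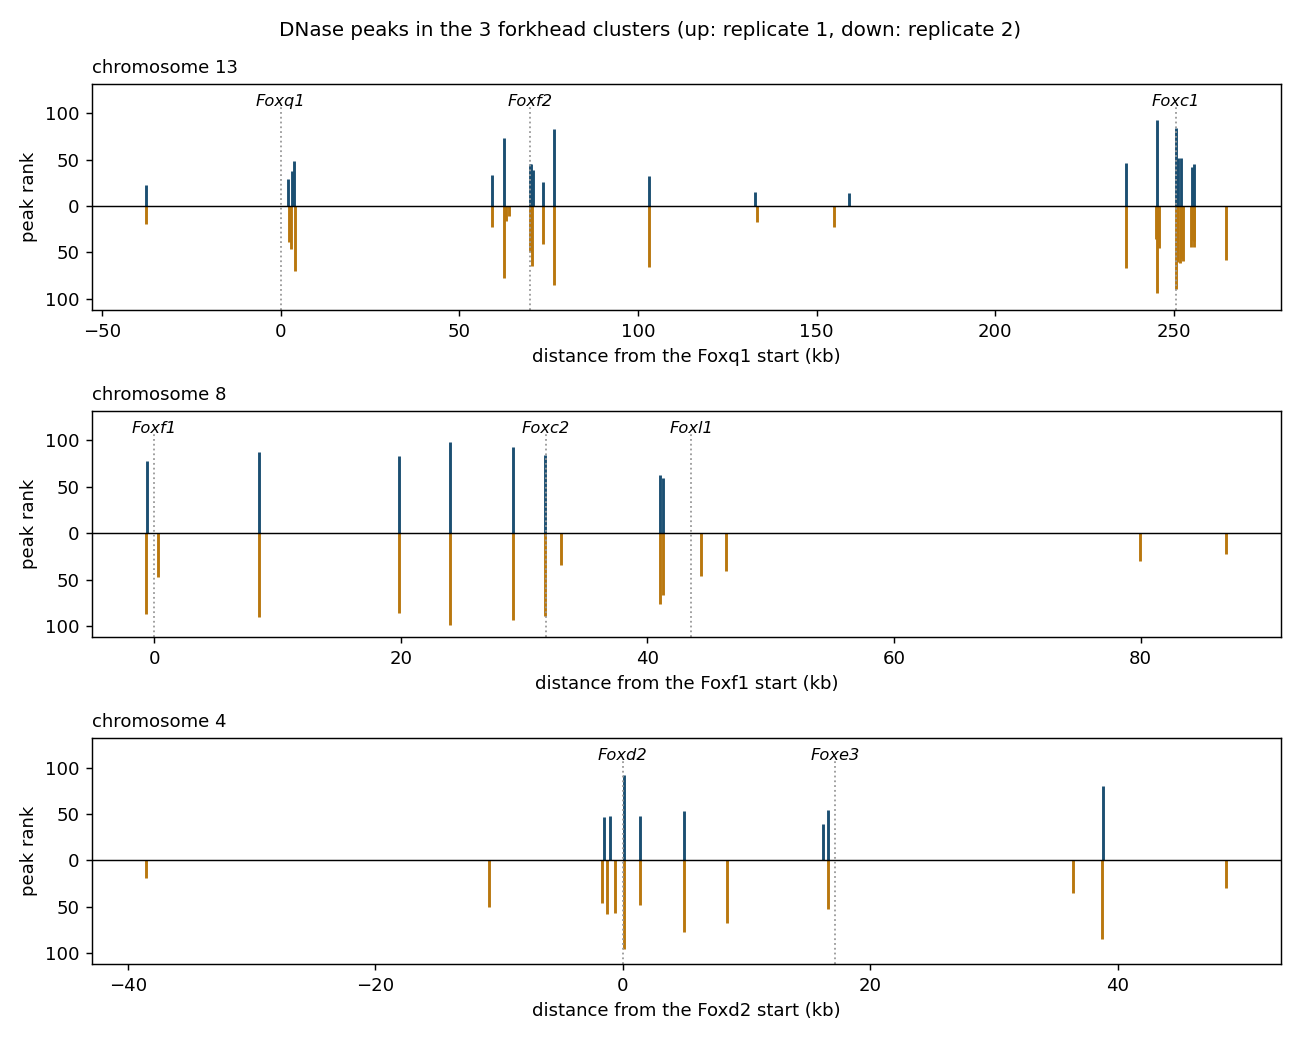
Peaks in both libraries across the 3 forkhead clusters, by distance in kb from the start of the leftmost forkhead gene; line height is the peak's rank in its library, upward for replicate 1 and downward for replicate 2. Dotted lines mark forkhead starts: Foxl1 and Foxq1 had no promoter peak, while Foxc1 and Foxc2 ranked 84.2 in replicate 1.

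The 4 endodermal members had low ranks within 500 bp of their starts. Foxa3, a hepatic and gut factor, had the strongest, with ranks of 63.1 and 61.4 (62.2 ± 1.17, SD, n = 2). Foxa2, of the floor plate and definitive endoderm, ranked 24.0 and 33.7 (28.8 ± 6.86, SD, n = 2), at peaks in its body. These strongest peaks did not overlap each other, but the replicate 1 peak overlapped a weaker Foxa2 promoter peak of replicate 2 (rank 27.1). Foxa1 had promoter peaks in replicate 2 only, 3 of them, the strongest at rank 53.6. Foxe1, of the thyroid, had 1 in replicate 2 only, at rank 31.2. With a reach of 1000 bp all 4 had a peak in both libraries, and the mean ranks of Foxa3, Foxa1 and Foxe1 were then 96.4, 69.7 and 44.3. A strong peak thus lay just outside the 500 bp reach at Foxa3. Other starts near that peak are not given here, so it cannot be assigned to Foxa3 from these values.

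Of the 11 ectodermal members, 6 had a promoter peak in both replicates, and only Foxo6 a mean rank over 80. Foxo6, the Foxo gene best known from the brain, ranked 93.1 and 93.2 (93.2 ± 0.0803, SD, n = 2). This was close to the excluded Foxo1 (92.7), Foxo3 (91.8) and Foxo4 (89.9). Its peak lay upstream of the start, from -771 to -372 in replicate 1 and from -571 to -492 in replicate 2. With a reach of 200 bp the mean rank of Foxo6 was 27.7. Foxe3, of the lens, ranked 54.8 and 52.4 (53.6 ± 1.73, SD, n = 2) inside its single exon, and its mean rank was 0 with a reach of 200 bp. Foxd3, which maintains neural crest, ranked 43.4 and 49.1 (46.3 ± 4.06, SD, n = 2). Foxb2 had a mean rank of 38.5 and Foxi3, of ectodermal placodes, 37.8. Foxi1 (rank 18.9) and Foxn4 (36.1) had a peak in replicate 1 only, Foxi2 (17.2) and Foxd4 (50.2) in replicate 2 only, and Foxb1 in neither. In all, 2 members had a promoter peak in replicate 1 only and 5 in replicate 2 only, the library with more peaks, beside 4.17% of all genes with a peak in 1 library only.

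In the restricted group, Foxj1 stood apart. Foxj1, the regulator of motile cilia, had densities of 6.83 and 4.53 and ranks of 95.3 and 96.6 (96.0 ± 0.927, SD, n = 2), the strongest promoter outside the broadly expressed members. Foxp3, which defines regulatory T cells, had ranks of 30.2 and 66.6 (48.4 ± 25.8, SD, n = 2), and its strongest peaks in the 2 libraries did not overlap. Its mean rank was 91.2 with a reach of 1000 bp and 16.6 with the strongest 50% of peaks. The Foxp3 peaks lay within 500 bp of starts of Flicr and Ppp1r3f, so they cannot be assigned to Foxp3 alone. Of the lymphocyte markers, Cd3e, Cd4, Il2ra and Ctla4 had no promoter peak in either library. Foxh1, Foxn1, Foxq1, Foxr1 and Foxr2 had none either. With Foxb1 and Foxl1, 7 members were without a promoter peak in both libraries (31.8% of all genes).

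The Foxj1 promoter is shown up to its start because it is the strongest of the restricted group (chr11:116335400-116335520, mm10, minus strand). The 24 bases in footprints of both libraries formed 1 run over a GC box at -32, and a CCAAT box lay outside it at -61.

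Foxj1 promoter: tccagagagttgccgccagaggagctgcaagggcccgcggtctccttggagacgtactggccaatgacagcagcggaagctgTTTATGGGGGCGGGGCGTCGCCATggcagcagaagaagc

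Most members have CpG-rich promoters. Outside the broadly expressed group, most of these had lower ranks within 500 bp of their starts than other promoters of the same CpG content. All genes were split into 10 equal classes by the ratio of observed to expected CpG within 500 bp of the first start. The 5 upper classes held 32 members. Of these, 23 were not broadly expressed, 22 had a mean rank below the median of their class, and 15 lay in the lowest 10% of it. Of the 9 broadly expressed members in these classes, 6 were below the median and 0 in the lowest 10%. From the lowest to the highest of the 5 classes, 90.6%, 95.6%, 96.6%, 98.2% and 98.2% of all genes had a promoter peak in both replicates. Among members it was found at 3 of 5, 3 of 5, 5 of 6, 9 of 10 and 6 of 6. Foxa1, with a CpG ratio of 0.880, ranked above 2.07% of its class, Foxi3 above 2.81% and Foxd3 above 3.59%, where the class median rank was 95.3. Foxd2 (49.8%) and Foxo6 (36.1%) lay nearer the middle of theirs, and Foxj1 (70.6%) was the single gene of the 23 above its class median. This comparison was made only at the 500 bp reach. With a reach of 1000 bp the ranks of Foxa3, Foxp3, Foxf1 and Foxa1 were much higher, as given above. Class medians at that reach are not given, so the places of these genes in their classes depend on the reach. Across genes, CpG ratio and mean rank went together (Spearman rho 0.658 over the 41 members and 0.750 over 21829 genes, which share base composition).

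**Figure D3:**
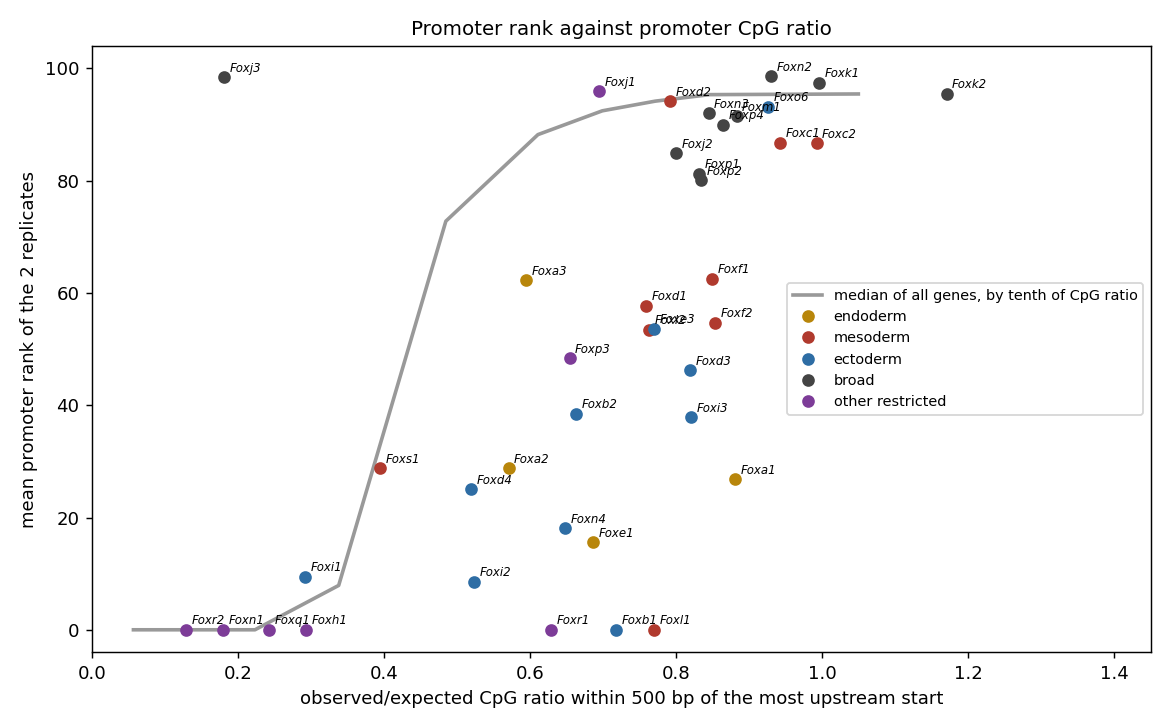
Mean promoter rank (vertical) against the ratio of observed to expected CpG within 500 bp of the first start (horizontal), 1 point for each of 40 forkhead genes, coloured by role; the grey line joins medians of all genes in 10 classes of CpG ratio. Most endodermal, mesodermal and ectodermal members lie far below the line at ratios over 0.6, while Foxj3 lies above it at rank 98.4.

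At Foxd3, Foxd1 and Foxb2 a low promoter rank went with a broad accessible region. Breadth was taken as the bases at FDR under 0.05 within 2 kb of the first start. Foxd3 had 2101 such bases in replicate 1 and 2142 in replicate 2, above 94.2% of its CpG class, where the medians were 1040 and 1235. Foxd1 had 2111 and 2271, above 96.4% of its class. Foxb2 had 1312 and 1915, above 88.2%. These 3 genes had mean ranks of 46.3, 57.8 and 38.5. In all, 7 of the 23 (30.4%) had a mean rank below and a breadth above their class medians, the breadth in both libraries, as did 17.4% of the 10914 genes in these 5 classes. Since 22 of the 23 had a rank below the class median, this joint share depends mainly on rank. Breadth alone was above the class medians in both libraries at the same 7 of 23, beside 42.9% of the 10914 genes. A broad region was thus somewhat less frequent among the 23 than in their classes, a gap of few genes that was not tested. Foxp1 (2694 and 2838 bases) and Foxp2 (2877 and 2826) were the broadest members. Their mean ranks were 81.2 and 80.1, above 14.5% and 13.4% of their CpG classes, and that of Foxp1 was set at an internal start. Foxc2, with 386 and 1038 bases and a mean rank of 86.6, was low in its class on both measures, above 7.17% of it in breadth and 17.4% in rank. Foxb1, which sits in the same CpG class as Foxb2, had 0 in both libraries.

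**Figure D4:**
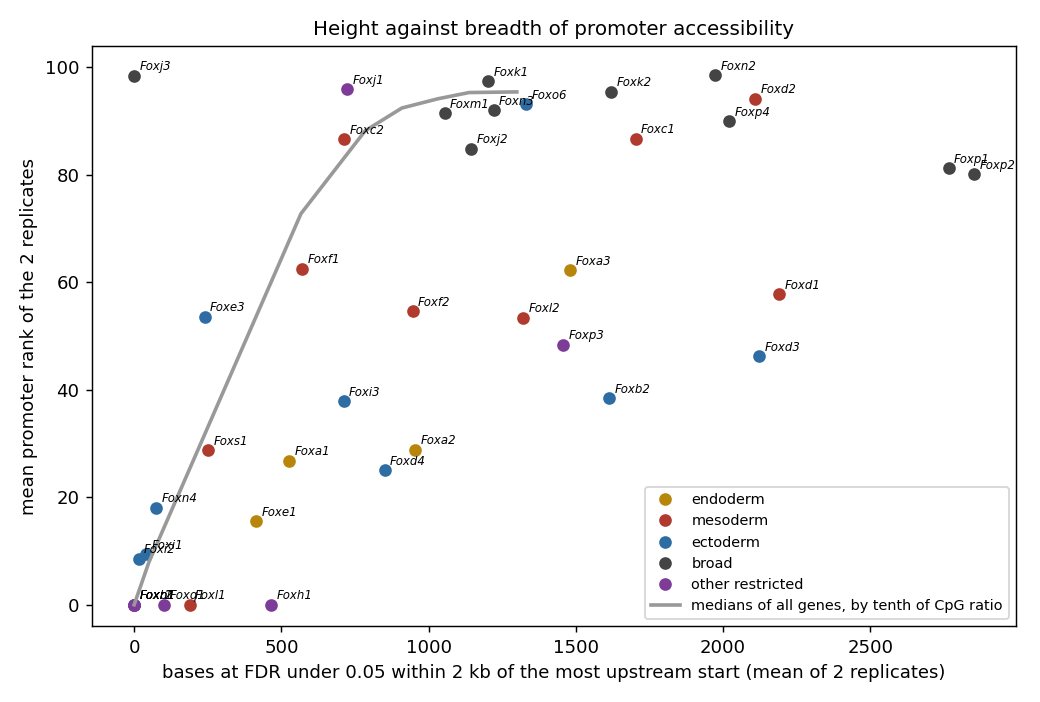
Mean promoter rank (vertical) against the bases at FDR under 0.05 within 2 kb of the first start, averaged over the 2 replicates (horizontal), 1 point for each of 40 forkhead genes; the grey line joins the medians of all genes in 10 CpG classes. Foxd1, Foxd3 and Foxb2 sit far to the right at middle ranks, and Foxj3 sits at 0 bases because its peak is at a later start.

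Distal peaks were more numerous around forkhead genes than around genes in general. A distal peak here overlapped a peak of the other library, had its centre over 1 kb from every annotated start and lay within 50 kb of the member's first start. The 41 members had 172 distinct ones, with a median of 4 each, beside 2 for all genes. The median was 7 beside 3 in replicate 2 alone and 5 beside 2 in replicate 1 alone. It was 2 beside 1 with the shorter lists, 2 beside 0 within 20 kb, 2 beside 0 for nearest starts only, 6 beside 4 within 100 kb, and 1 beside 1 with the strongest 50% of peaks, so there it did not differ. At least 1 was found at 40 of 41 members, beside 73.2% of all genes, and Foxp3 alone had none. At least 5 were found at 20 of 41, beside 18.4% of all genes, and at least 10 at 4 of 41, beside 2.59%. Clustered members count the same peaks: Foxf1, Foxc2 and Foxl1 share 1 set of 5, and Foxd2 and Foxe3 another set of 5. Neighbouring genes count the same peaks in the all-gene shares too. A forkhead start was the nearest coding start for 111 of the 172, and 71 were intergenic, 75 intronic and 26 exonic. Some peaks within a list overlap each other, so these counts include nested peaks. As strength goes, the distal peaks of members were ordinary, with a median mean rank of 54.9, beside 56.0 for all 45649 shared distal peaks. A mean rank over 90 was reached by 9 (5.23%), beside 3.81% of all.

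**Figure D5:**
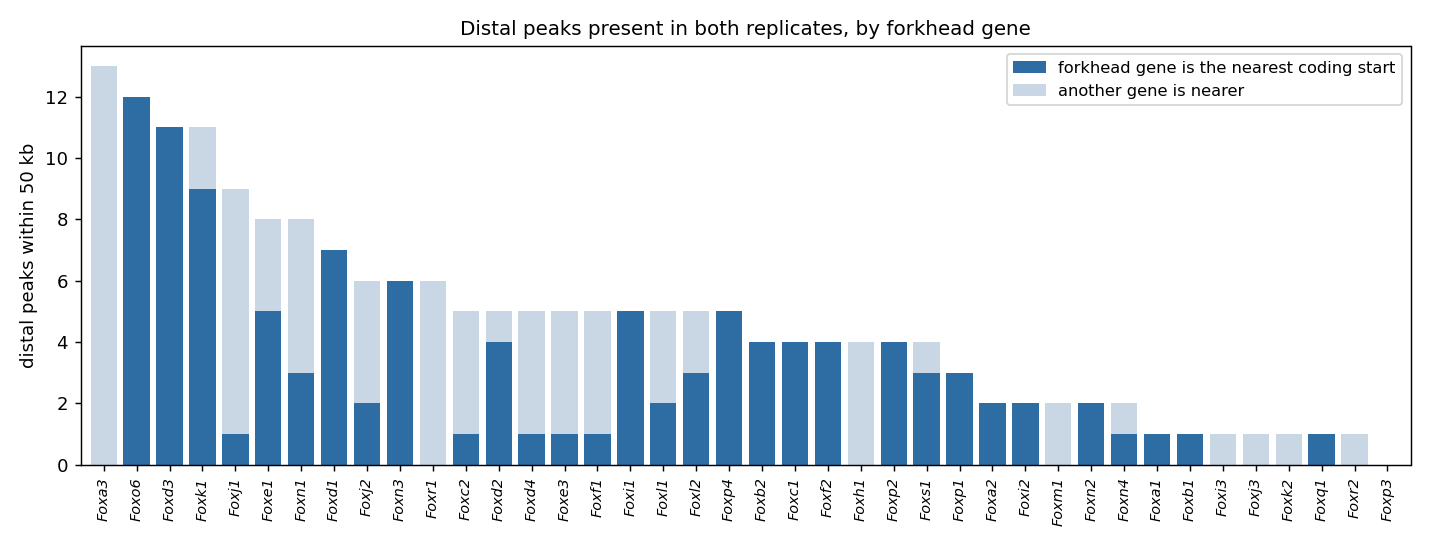
Distal peaks found in both replicates within 50 kb of 40 forkhead genes (vertical axis, number of peaks), split into those whose nearest coding start is the forkhead gene (dark) and the rest (light). Foxa3 has 13 and is the nearest gene to 0 of them, while all 12 at Foxo6 and all 11 at Foxd3 are nearest to that gene.

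The highest counts were not of 1 kind. Foxa3 had 13, but lay nearest to 0 of them, since Irf2bp1, Sympk and other genes are closer. Foxj1 had 9, and 1 was nearest to it. Foxo6 had 12 and Foxd3 11, and all of these were nearest to the named gene. At Foxo6, 6 of the 12 lay in its own body or intron, and 2 lay close together at +38269 and +39719 (mean ranks 91.2 and 87.2). At Foxd3 the site at +4891 stood out, with ranks of 81.3 and 85.5, and the other 10 had mean ranks from 19.6 to 55.2. Foxk1 had 11, and 9 were nearest to it. Its sites were strong, with 4 of the 11 at mean ranks over 80.

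The strongest distal peak of the family lay at -34067 from Foxk1, with ranks of 99.1 and 99.1. Next came a site at -45402 from Foxh1 in an exon of Lrrc14 (mean rank 94.0), at -2671 from Foxc2 (93.4 and 94.0), at +16229 from Foxj1 (92.1 and 94.7) and at +39103 within Foxk1 (92.3 and 94.4). The Foxc2 site is also within 50 kb of Foxf1 and Foxl1. The strongest sites of the remaining roles were Foxo6 +38269 and Foxe1 -38699 (90.01 and 90.8).

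The strongest site outside exons is shown for each of the 5 roles, with the site at Foxc1 -5263 because it is the strongest peak of its cluster. All are on the plus strand of mm10, over the bases common to both libraries' peaks, again with shared footprints in capitals. They are chr5:142367341-142367520 (intergenic), chr8:121113401-121113600 (intron of the gene model Gm20388), chr13:31801281-31801460 (intergenic), chr11:116319081-116319260 (intergenic, nearest Exoc7), chr4:46304821-46305000 (intron of Gm12446) and chr4:120248981-120249180 (intergenic).

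Foxk1 -34067: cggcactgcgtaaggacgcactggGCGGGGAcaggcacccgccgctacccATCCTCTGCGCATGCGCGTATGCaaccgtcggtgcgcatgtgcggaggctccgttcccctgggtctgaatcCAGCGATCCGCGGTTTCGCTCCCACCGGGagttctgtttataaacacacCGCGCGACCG
Foxc2 -2671: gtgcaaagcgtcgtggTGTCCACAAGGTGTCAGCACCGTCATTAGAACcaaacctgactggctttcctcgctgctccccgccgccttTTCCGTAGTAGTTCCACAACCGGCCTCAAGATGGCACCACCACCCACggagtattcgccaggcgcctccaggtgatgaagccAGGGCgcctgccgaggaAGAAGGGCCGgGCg
Foxc1 -5263: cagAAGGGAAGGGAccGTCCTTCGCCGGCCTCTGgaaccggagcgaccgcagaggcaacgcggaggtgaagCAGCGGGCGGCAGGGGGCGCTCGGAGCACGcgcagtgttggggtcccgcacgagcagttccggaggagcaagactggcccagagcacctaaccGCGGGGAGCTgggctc
Foxj1 +16229: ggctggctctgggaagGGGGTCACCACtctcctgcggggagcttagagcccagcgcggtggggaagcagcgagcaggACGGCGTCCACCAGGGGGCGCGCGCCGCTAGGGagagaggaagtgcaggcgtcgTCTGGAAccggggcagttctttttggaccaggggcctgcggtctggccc
Foxe1 -38699: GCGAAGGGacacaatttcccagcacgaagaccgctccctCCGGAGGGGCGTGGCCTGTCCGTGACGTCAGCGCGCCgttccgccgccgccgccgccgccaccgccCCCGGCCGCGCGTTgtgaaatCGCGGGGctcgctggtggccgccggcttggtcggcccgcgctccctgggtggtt
Foxo6 +38269: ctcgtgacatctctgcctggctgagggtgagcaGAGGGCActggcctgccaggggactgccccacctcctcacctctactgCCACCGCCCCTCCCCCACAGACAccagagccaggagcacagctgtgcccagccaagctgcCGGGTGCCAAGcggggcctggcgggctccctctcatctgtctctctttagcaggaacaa

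Several protected runs in these peaks held words known as binding sites of general factors, each searched on both strands in the 200 bp around the peak centre, after the sequences had been read. The Foxk1 site held GCGCATGCG, the core of the NRF1 motif, in a footprint of both libraries. This word occurred in 2 of the 172 (1.16%), the other at -11062 from Foxn1, and in 0.248% of all shared distal peaks. The Foxe1 site held TGACGTCA, the cyclic AMP response element, likewise in a shared footprint (1 of 172 and 0.410% of all). The Foxc2 site held AAGATGGC, a YY1 word, in a shared footprint, as did the site at +46823 in Foxk1. AAGATGGC occurred in 5 of the 172 (2.91%) and in 1.40% of all.

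The Foxj1 site held CCAGGNGGC, a core of the CTCF motif, also in a shared footprint. This core was found in 13 of 172 peaks around members (7.56%) and in 5.09% of all shared distal peaks. A match lay in a footprint of both libraries in 8 of the 172 (4.65%), beside 3.45% of all. Among the 8 were the sites at Foxf2 +6844 and Foxd1 -2509. The myogenic E-box CAGCTG was found in 46 (26.7%), beside 29.9%, and lay in a shared footprint in 9 (5.23%), beside 5.62%. The AP-1 word TGANTCA was found in 13 (7.56%), beside 7.80%. These shares lay near those of all shared distal peaks, and no test was made.

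The 3 forms of the forkhead motif that were searched occurred about as often near forkhead genes as elsewhere. Any of these 3 forms, named above, on either strand, occurred in 12 of 172 (6.98%), beside 7.22% of 45634 shared distal peaks with full sequence. Other forms were not searched, so a peak without a match may still hold a forkhead site. None of the 12 matches lay in a footprint of both libraries, beside 7.67% of the 3427 matches in all such peaks. A match at -1839 from Foxp2 lay in a footprint of replicate 1 only. The match in the strongest peak is shown with 12 bases on each side and the motif in capitals, at Foxk1 +39103 (chr5:142440543-142440573, mm10, plus strand).

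Foxk1 +39103 motif: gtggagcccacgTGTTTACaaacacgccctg

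Genes that act with forkhead factors were mostly accessible. Of 26 genes of hedgehog signalling and of forkhead cofactors, 24 had a promoter peak in both replicates. Their median mean rank was 93.4, beside 64.1% of all genes with such a peak and a median of 77.2. Most of the 26 have CpG ratios of the 5 upper classes. In those classes 90.6% to 98.2% of all genes had a peak in both replicates, and class median ranks ran from 88.2 to 95.4. The 26 genes were thus not shown to be more accessible than others of like CpG content. Of the ligands, Shh and Ihh had none in either, and Dhh ranked 37.7 and 33.7 (35.7 ± 2.85, SD, n = 2). All 7 receptors and coreceptors had a peak in both, from Hhip at a mean rank of 43.9 to Gas1 at 94.8, as did the 4 effectors, from Gli1 at 89.1 to Sufu at 98.2. The 12 cofactors all had a peak in both, with Tle4, a Groucho corepressor that binds several Fox proteins, at 99.9 and Smad4, a partner of Foxh1, at 98.4.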

How the data were processed

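DNase-seq of 2 libraries was used as deposited, on mm10. Per the file headers and listings, peaks, footprints and FDR cut rates were made for each library separately. For the peak caller, its threshold and the aligner, nothing is given in the sources used here. The deposited peak signal is a cut density on a scale of whole steps that differs between libraries. The deposited FDR (an adjusted p-value) was given only for stretches up to 0.05. The deposited footprints carry a constant 0.01 in place of a score, and only their positions were used.

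From these, peaks of the longer of the 2 lists of each library were ranked by density. Promoter peaks lay within 500 bp of a coding start of GENCODE vM21, and distal peaks lay over 1 kb from every start and within 50 kb. Peaks were shared if they overlapped by 1 bp. Motifs were searched in the RefSeq copy of GRCm38, within whose chromosomes all intervals lay. Python 3.11.15, numpy 2.4.6, pandas 2.3.3, scipy 1.17.1 and pysam 0.24.0 were used, and the interval code was tested on simulated data. Depth is unknown, and the number of peaks limits the precision.

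The members and lists were chosen with earlier results of these data known, roles were assigned by hand from general knowledge, and the CTCF, E-box, AP-1, NRF1, CRE and YY1 words, the CCAAT, GC and TATA boxes and the Foxp1, Foxn3 and Foxb2 values were chosen after values were seen. Values in full were given for the top 3 members of each role, those with a peak in 1 library only, the 5 with most shared distal peaks and those within 200 kb of another member. The values of 1 member are not reported here; it stays in the counts. Alternatives were the shorter peak lists, the strongest 50% of peaks, equal numbers of peaks, other reaches, overlaps and starts, and each library alone.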

Additional observations from a re-analysis of the deposited data

How the results depend on the processing

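Limits were the unknown depth, the single group and the different lengths of the peak lists. The broadly expressed members had a promoter peak in 10 of 10 under each alternative run except the most upstream start only, with 9. The median mean rank of the members was 53.4, beside 77.2 for all genes. In replicate 1 alone it was 43.4, beside 74.8 for all genes, and in replicate 2 alone 57.5, beside 79.8. It was 31.2 with a promoter reach of 200 bp, 26.5 with the shorter peak lists and 14.3 with the strongest 50% of peaks. For these 3 settings no all-gene median is given, and a shorter reach or fewer peaks can lower the rank of any gene. They do not show whether the gap to all genes held. The number with a promoter peak in both libraries (27) was 29 in replicate 1 alone and 32 in replicate 2 alone. It fell to 22 with a reach of 200 bp, 22 with the shorter lists and 18 with the strongest 50%. It was 25 from the most upstream start only, 26 with lists of equal length and 31 with a reach of 1000 bp. Apart from the single libraries, no all-gene share is given for these alternatives. The other counts do not show whether members stayed level with all genes. Endodermal members with a promoter peak (2) numbered 4 with a reach of 1000 bp, 1 from the most upstream start only, 1 with the shorter lists and 1 with the strongest 50%, and 2 and 4 in each library alone. Mesodermal members (7) numbered 4 with the strongest 50%. Ectodermal members (6) numbered 2 with a reach of 200 bp, 3 with the shorter lists and 2 with the strongest 50%. The restricted group (2) had 1 with the strongest 50%.

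Distinct shared distal peaks (172) numbered 90 with the shorter lists, 82 with the strongest 50%, 89 within 20 kb, 280 within 100 kb and 111 where the member was the nearest coding start. The share of peaks around members with a forkhead motif (6.98%) was 8.89% with the shorter lists, 7.32% with the strongest 50%, 6.83% with equal numbers of peaks, 5.62% within 20 kb, 7.14% within 100 kb, 7.69% for centres over 2 kb from every start and 7.21% for nearest starts only, and 6.07% and 6.22% in each library alone. No paired analysis was possible because the 2 libraries form 1 group.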
